A study of Mus musculus with 21 samples.

Results

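Cell cycle and mitosis genes were followed through 7 groups of neurons made from mouse embryonic stem cells. The members were a list of 40 genes chosen by symbol for their role in the cell cycle, and 39 of them had a probe set of that symbol among the 18193 genes tested. Ccnb1, the gene of cyclin B1, is the 40th: its expression is not analysed here, and it enters only the count of promoter motifs. Each gene was read by its most variable probe set over the 21 arrays, so the readings favour the probe set that moved most. Of these members 29 had several probe sets, which agreed for some, as for Rrm2 (correlations of 0.96 to 0.98), and not for others. The other Aurka probe set had an SD of 0.04 beside 1.52 and a correlation of -0.005 with the one used. For Cdc45 these were 0.09 beside 0.77 and -0.05, and the other Cenpa probe sets correlated at -0.10 to 0.06. The arrays were Affymetrix Mouse 430 2.0, with 3 biological replicates, per the sample titles, in each group. P-values set differences of group means against the spread between replicates, which was pooled for each gene over all 7 groups.

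All RNA came from purified post-mitotic neurons, per the labels. The 3 engineered lines carry the name NesE, joined to the transcription factor Lmx1a, Nkx2.2 or Olig2, and all of their cultures received SHH. The Lmx1a line, labelled as mesencephalic dopamine neurons, received FGF8 and was sampled at day 10 (called immature in the labels) and at day 14 (called mature). The Nkx2.2 line, labelled as serotonergic neurons, was sampled at day 10 under FGF8 (rostral hindbrain) and at day 10 under RA, retinoic acid (caudal hindbrain). The Olig2 line, labelled as somatic motoneurons, was sampled at day 8 under RA. Wild type cells were sampled at day 10 with FGF8 (dorsal midbrain) and at day 8 with RA (dorsal hindbrain). The labels disagree on whether these wild type cultures also received SHH: the titles name it and the source names do not. Each line is 1 stem cell line, so the line and its transcription factor cannot be told apart.

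A dividing cell licenses its replication origins, copies its DNA in S phase, and then separates its chromosomes on a mitotic spindle. Neural progenitors do this repeatedly, and a neuron leaves the cycle for good as it is born. RNAs of S phase and mitosis genes are therefore commonly read as a measure of the dividing progenitors left in a neuronal culture. In bulk RNA, fewer dividing cells and less RNA per dividing cell cannot be told apart.

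The deposited values were log2 signals that had been centred, probe set by probe set, on a median over 27 arrays, so 0 marks that median and only differences between arrays can be read. A reading is given on this log2 scale throughout, and a difference is a difference of group means with its standard error. For this reason neither the presence of neuronal markers nor the near-absence of division can be checked as a level. A gene passed the test at an adjusted p under 0.05 (limma, Benjamini-Hochberg over all genes) together with a log2 difference of at least 1 in size. Arrays also fell into 2 sets by the bioC hybridisation control: 9 arrays read between -2.75 and -1.27 and 12 between -0.15 and 0.65. The lower set held all Lmx1a day 10 arrays, and replicates 1 and 2 of Lmx1a day 14, the Olig2 line and the FGF8 wild type. The added labelling controls read between -3.59 and -3.57 on the 3 Lmx1a day 10 arrays and between -1.81 and 2.02 on the 18 others.

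The members were high in FGF8 wild type cells on 2 of 3 arrays, somewhat high in the Lmx1a line at day 10, and low in the Lmx1a line at day 14. The median reading over the 39 members was 1.98, -1.38 and 2.58 on the 3 FGF8 wild type arrays. It was 0.65, 0.48 and 1.01 in the Lmx1a line at day 10, and -0.94, -1.58 and -0.97 at day 14. The day 10 and day 14 arrays of that line did not overlap. In the Nkx2.2 line it was -0.33, -0.47 and 0.08 under FGF8 and -0.28, -0.09 and 0.10 under RA. The Olig2 line read 0.64, 0.64 and -0.10, and RA wild type cells read -1.10, 0.10 and -0.17. Both sets of Nkx2.2 arrays lay close to 0.

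**Figure D1:**
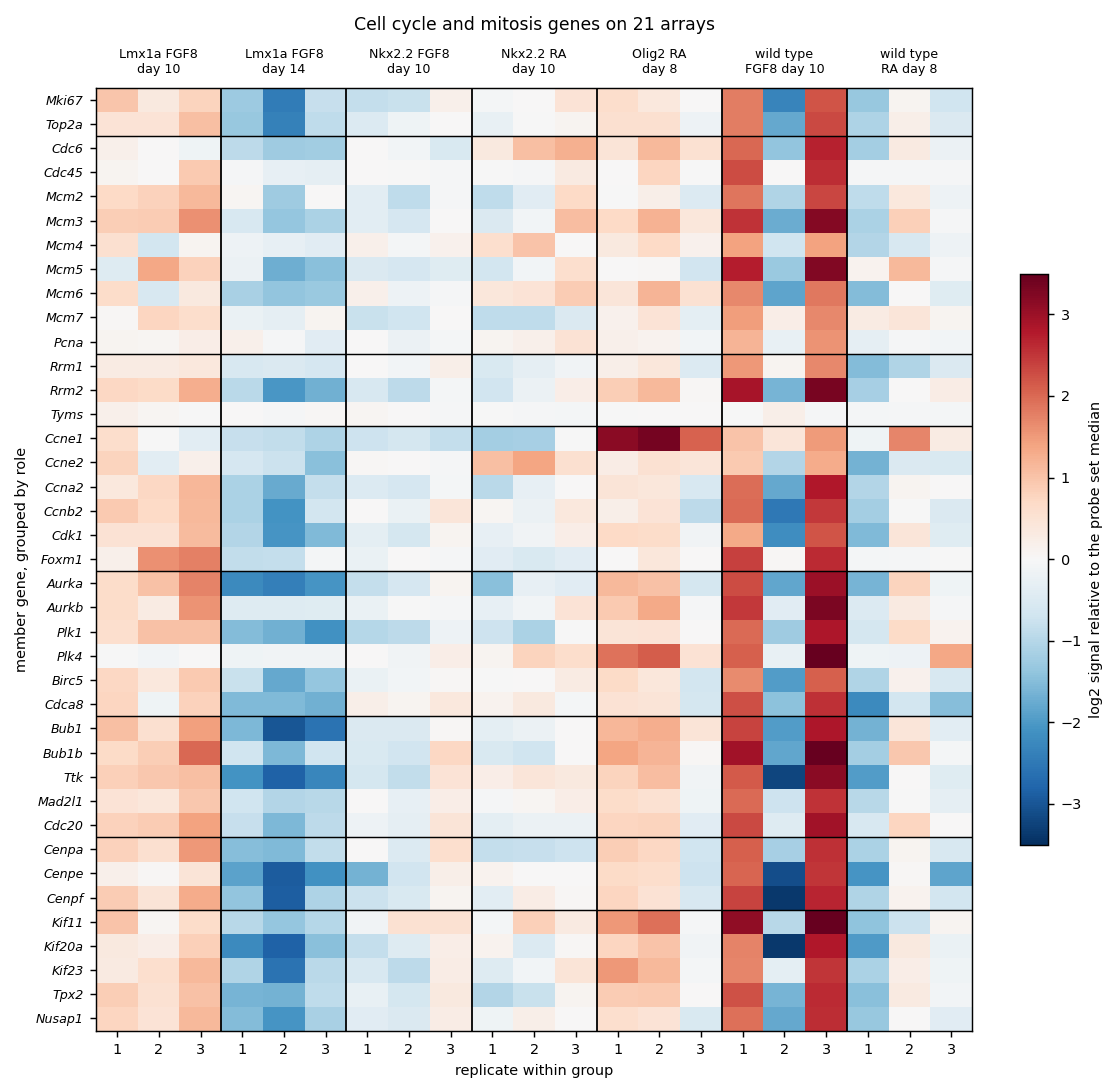
Log2 signal of the 39 members (rows, grouped by role) on the 21 arrays (columns, by group and replicate), relative to each probe set's median. Replicates 1 and 3 of FGF8 wild type cells are high for nearly every member, replicate 2 is low, and the Lmx1a day 14 arrays are low.

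Ordered by the mean of these array medians, FGF8 wild type cells came first at 1.06 ± 2.13 (SD, n = 3), followed by the Lmx1a line at day 10 at 0.71 ± 0.27. The Olig2 line followed at 0.39 ± 0.43. The Nkx2.2 line then read -0.09 ± 0.19 under RA and -0.24 ± 0.29 under FGF8. RA wild type cells read -0.39 ± 0.63, and the Lmx1a line at day 14 was last at -1.16 ± 0.36. Each group's arrays overlapped those of its neighbour in this order. By single genes, 28 of the 39 members had their highest group mean in FGF8 wild type cells and 33 had their lowest in the Lmx1a line at day 14.

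**Figure D2:**
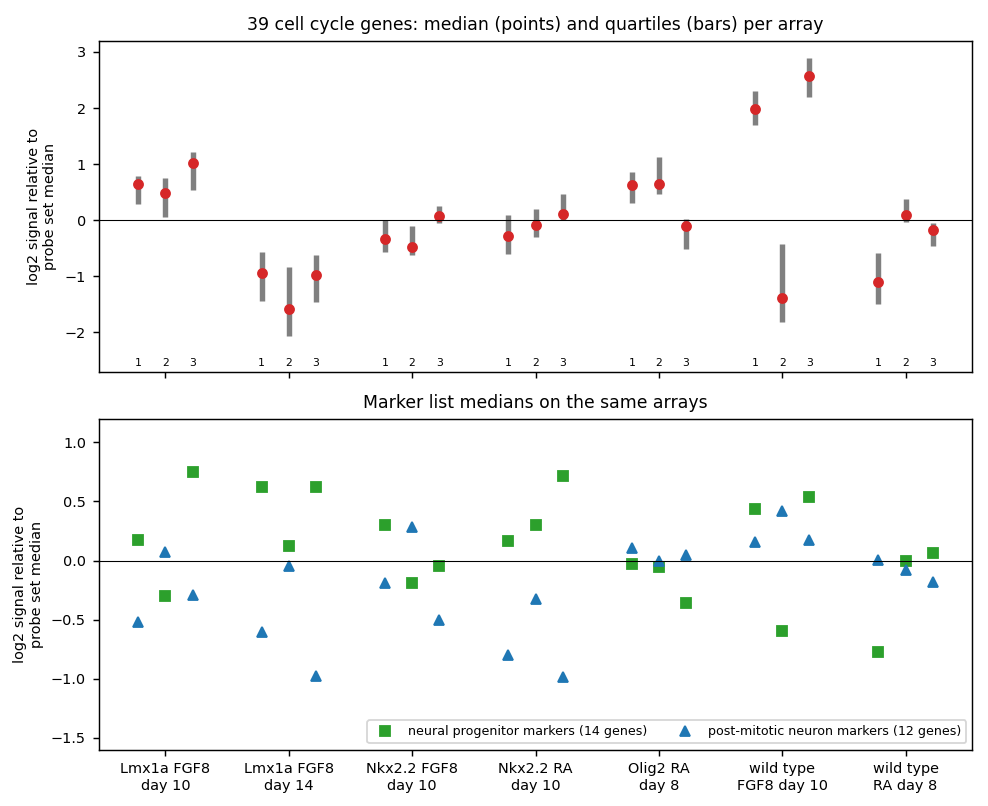
Upper panel: median (points) and quartiles (bars) of the 39 members on each array, in log2 relative to the probe set median, by group and replicate number. Lower panel: medians of 14 neural progenitor markers and 12 post-mitotic neuron markers on the same arrays. The FGF8 wild type medians run from -1.38 to 2.58.

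The FGF8 wild type arrays stood apart from one another. Replicate 3 was the highest of all 21 arrays for 36 of the 39 members, and replicate 2 was the lowest for 13. Within this group 34 of 39 members had an SD over 1, beside 5.12% of all genes. Replicate 2 minus the mean of replicates 1 and 3 had a median of -3.82 over the members and 0.07 over all genes, and it was -2 or lower for 34 of the 39 members, beside 2.89% of all genes. By role, the median of this difference was lowest for the 3 centromere and kinetochore members, -5.37. Cenpf, a kinetochore protein, read 2.37, -3.37 and 2.66, and Cenpe, a kinetochore motor, read 2.02, -3.11 and 2.51. The remaining member of that role, Cenpa, differed by -3.49, less than the median member. Ttk (-5.87) and Kif20a (-5.65), of other roles, differed by more than Cenpe (-5.37). Among genes outside the members, 41 other G2 and M genes had a median of -3.33, 34 other S phase genes -1.80 and 14 neural progenitor markers -1.54, with all 14 below 0. The 12 post-mitotic neuron markers had a median of 0.27. Markers of other cell types differed too: 5 mesenchymal markers had a median of -1.68, with 4 below 0. The median was -0.44 for 4 oligodendroglial markers and 0.08 for 5 astroglial ones, of which the lowest differed by -5.06. It was 0.13 for 8 pluripotency, 0.10 for 4 endothelial and 0.08 for 5 trophoblast markers. Every comparison shared 1 estimate of spread over all 21 arrays, so this array entered the standard errors of comparisons it was not part of. For Mki67 the standard error of Lmx1a day 14 minus day 10 was 0.85 with it and 0.42 without it. Counts of members that passed are therefore also given without it. The array was singled out because the members read low on it. In comparisons with the FGF8 wild type, leaving it out keeps the 2 high arrays, so such counts are no independent support. In other comparisons leaving it out lowered the standard errors of the members, so those counts follow in part from the choice. With all arrays, the pooled spread was smaller than the FGF8 wild type's own for most members. For Cdc45 that group's SD was 1.40, beside 0.02 in the Nkx2.2 line under FGF8. Standard errors and adjusted p-values in comparisons with that group therefore understate its spread.

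**Figure D3:**
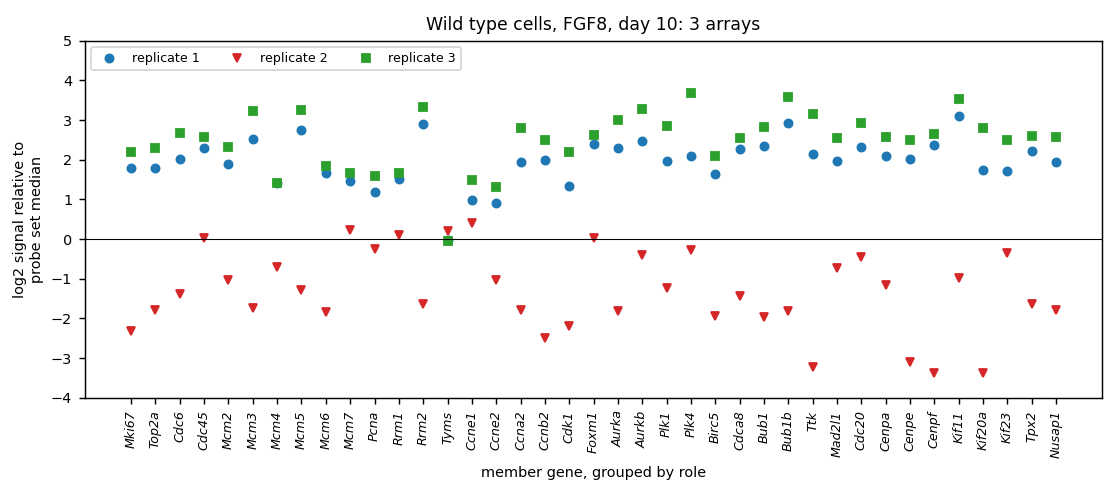
Log2 signal of each member on the 3 arrays of FGF8 wild type cells, relative to the probe set median. Replicate 2 (triangles) lies below replicates 1 and 3 for 38 of 39 members, and Tyms is the exception.

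The members varied together across arrays. Over the 21 arrays the correlation of a member with the median of the other members had a median of 0.94, was 0.9 or higher for 25 of 39, and was under 0.5 for 2, Ccne1 (0.47) and Tyms (-0.16). Without the FGF8 wild type arrays the median over 18 arrays was 0.89 and 19 members were at 0.9 or higher. Which members lay under 0.5 changed: Tyms (0.25), Mcm7 (0.39), Plk4 (0.44) and Mcm4 (0.44) did, and Ccne1 was at 0.50. These correlations are descriptions: the arrays share groups, and the members were listed for their common function. Rrm2, the small subunit of ribonucleotide reductase, was closest to the common course at 0.98. Mcm7, a helicase subunit, was the third loosest at 0.66, and Ccne2, a cyclin E gene, followed at 0.70. Over all genes outside the lists, the 10 that followed the member median most closely were Sgo2a (correlation 0.97), Knstrn, Cip2a, Stil, Shcbp1, Pclaf, Atad2, Hells, Aspm and Arhgap11a (0.94 to 0.96 for the other 9). Sgo2a protects chromosome cohesion, Stil builds centrioles and Aspm sits at spindle poles.

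Because the members moved together, their promoters are shown for 5 of them with the letters of known cell cycle motifs. RefSeq promoters of GRCm38.p6, from 250 bases before to 50 after the start, were matched for 33 of the 40 members, Ccnb1 among them. The motifs searched on both strands were the cell cycle homology region, CHR (TTTGAA), the CCAAT box (CCAAT) and an E2F site (TTTGGCGC, TTTCCCGC, TTTCGCGC or TTTGCCGC). CHR letters stood in 16 of 33 members, 48.5%, and in 20.2% of 27025 genes. CCAAT letters stood in 78.8% of members and 41.1% of genes. E2F letters stood in 18.2% of members and 2.6% of genes. Both CHR and CCAAT were present in 48.5% of members and in 8.97% of genes. Capitals mark these motifs on either strand. Plk1 (plus strand, chr7:122159185-122159484) and Aurka (minus strand, chr2:172370521-172370820) are mitotic kinase genes that fell in the Lmx1a line and hold CHR and CCAAT letters. Cdk1 (minus strand, chr10:69352863-69353162) holds all 3 motifs. Mcm3 (minus strand, chr1:20820263-20820562) stands for the licensing genes, with CCAAT and E2F letters. Ccne1 (minus strand, chr7:38107441-38107740), loosely tied to the other members (0.47 over 21 arrays), holds none of these letters in this window. Neither do Nusap1 (0.98), Mad2l1 (0.98) and Birc5 (0.96), which were closely tied to the others, while Mcm7 (0.66) holds CCAAT and E2F letters. A link between motifs and these correlations was not tested. Each sequence runs 5′ to 3′ along the gene.
Plk1: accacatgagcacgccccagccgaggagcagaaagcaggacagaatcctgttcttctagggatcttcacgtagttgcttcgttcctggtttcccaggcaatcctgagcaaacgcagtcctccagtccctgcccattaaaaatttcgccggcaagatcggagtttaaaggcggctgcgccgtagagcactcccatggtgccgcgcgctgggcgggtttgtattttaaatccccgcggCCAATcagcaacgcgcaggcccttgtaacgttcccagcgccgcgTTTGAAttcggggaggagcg
Aurka: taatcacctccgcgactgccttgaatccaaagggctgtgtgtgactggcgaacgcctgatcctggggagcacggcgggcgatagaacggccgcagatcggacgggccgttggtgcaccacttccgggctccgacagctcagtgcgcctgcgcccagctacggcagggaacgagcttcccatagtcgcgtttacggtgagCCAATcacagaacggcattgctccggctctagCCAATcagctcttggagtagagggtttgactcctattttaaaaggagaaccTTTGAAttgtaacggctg
Cdk1: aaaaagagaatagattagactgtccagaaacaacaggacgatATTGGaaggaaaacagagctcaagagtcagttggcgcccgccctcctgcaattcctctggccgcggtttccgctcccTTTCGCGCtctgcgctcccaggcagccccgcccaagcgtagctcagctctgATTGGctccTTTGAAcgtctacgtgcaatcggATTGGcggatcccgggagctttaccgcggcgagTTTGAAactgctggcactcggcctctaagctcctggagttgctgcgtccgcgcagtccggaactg
Mcm3: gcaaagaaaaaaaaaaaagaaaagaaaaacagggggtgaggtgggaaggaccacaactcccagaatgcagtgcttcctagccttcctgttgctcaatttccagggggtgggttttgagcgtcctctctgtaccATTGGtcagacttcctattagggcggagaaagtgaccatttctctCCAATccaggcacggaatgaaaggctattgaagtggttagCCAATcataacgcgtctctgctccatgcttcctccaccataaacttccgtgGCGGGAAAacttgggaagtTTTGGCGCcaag
Ccne1: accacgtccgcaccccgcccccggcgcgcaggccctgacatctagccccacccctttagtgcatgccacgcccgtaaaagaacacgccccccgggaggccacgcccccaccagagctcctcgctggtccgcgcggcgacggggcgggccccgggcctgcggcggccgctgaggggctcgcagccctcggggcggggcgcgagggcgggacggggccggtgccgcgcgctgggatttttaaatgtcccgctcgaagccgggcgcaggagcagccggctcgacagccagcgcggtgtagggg

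A CHR stretch begins 30 bases after the start in Plk1 and 32 bases after it in Aurka. The E2F letters were unevenly placed among the roles: 5 of the 6 promoters that held them belonged to licensing genes (Cdc6, Mcm3, Mcm5, Mcm6 and Mcm7), and the other was Cdk1. A match of letters is a description and not a site shown to be used.

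The general markers of division followed the common course. Mki67, a protein that coats mitotic chromosomes and is found in cycling cells, read under FGF8 0.98, 0.35 and 0.78 in the Lmx1a line at day 10, -1.26, -2.45 and -0.79 at day 14, -0.83, -0.79 and 0.17 in the Nkx2.2 line and 1.79, -2.32 and 2.199 in wild type cells. Under RA it read -0.08, 0.00 and 0.47 in the Nkx2.2 line, 0.60, 0.37 and 0.02 in the Olig2 line and -1.34, 0.09 and -0.70 in wild type cells. Its 4 lowest arrays were replicates 1 and 2 of Lmx1a day 14, replicate 2 of the FGF8 wild type and replicate 1 of the RA wild type. Top2a, the topoisomerase that untangles chromosomes, read under FGF8 0.48, 0.49 and 1.06 in the Lmx1a line at day 10, -1.33, -2.37 and -0.90 at day 14, -0.49, -0.16 and 0.00 in the Nkx2.2 line and 1.79, -1.79 and 2.31 in wild type cells. Its RA readings were -0.27, 0.00 and 0.09 in the Nkx2.2 line, 0.55, 0.56 and -0.18 in the Olig2 line and -1.08, 0.21 and -0.50 in wild type cells. The same 4 arrays were its lowest, followed by replicate 3 of Lmx1a day 14.

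Cdk1, the kinase that drives entry into mitosis, read under FGF8 0.51, 0.51 and 1.10 in the Lmx1a line at day 10, -1.03, -2.06 and -1.55 at day 14, -0.33, -0.61 and 0.10 in the Nkx2.2 line and 1.33, -2.18 and 2.19 in wild type cells. In the RA groups the readings were -0.28, -0.11 and 0.23 in the Nkx2.2 line, 0.70, 0.64 and -0.13 in the Olig2 line and -1.55, 0.41 and -0.41 in wild type cells. The day 10 and day 14 arrays of the Lmx1a line were fully apart for Cdk1. Mcm2, a subunit of the replicative helicase, read under FGF8 0.71, 0.81 and 1.14 in the Lmx1a line at day 10, 0.07, -1.25 and 0.00 at day 14, -0.36, -0.90 and -0.05 in the Nkx2.2 line and 1.88, -1.04 and 2.33 in wild type cells. The RA arrays gave -0.90, -0.40 and 0.71 in the Nkx2.2 line, -0.01, 0.19 and -0.47 in the Olig2 line and -0.88, 0.36 and -0.17 in wild type cells. Mcm2 was less clearly split: 2 of its 3 Lmx1a day 14 arrays lay near 0, though all 3 lay below the day 10 arrays. Pcna, the sliding clamp of the DNA polymerases, read under FGF8 0.10, 0.05 and 0.24 in the Lmx1a line at day 10, 0.18, -0.03 and -0.40 at day 14, 0.00, -0.19 and -0.06 in the Nkx2.2 line and 1.19, -0.26 and 1.58 in wild type cells. Under RA it read 0.09, 0.19 and 0.49 in the Nkx2.2 line, 0.18, 0.13 and -0.10 in the Olig2 line and -0.33, -0.04 and -0.09 in wild type cells. Apart from the 2 high FGF8 wild type arrays, no Pcna reading was further than 0.49 from 0.

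The members differed widely in how much they moved. Ttk, a kinase of the spindle checkpoint, had the largest SD over the 21 arrays, 1.62. It read under FGF8 0.82, 0.95 and 1.05 in the Lmx1a line at day 10, -2.08, -2.82 and -2.30 at day 14, -0.62, -0.86 and 0.48 in the Nkx2.2 line and 2.15, -3.21 and 3.16 in wild type cells. Its RA readings were 0.24, 0.43 and 0.35 in the Nkx2.2 line, 0.77, 1.07 and -0.12 in the Olig2 line and -1.96, 0.00 and -0.43 in wild type cells. Its range thus ran from replicate 2 to replicate 3 of 1 group. Tyms, the enzyme that makes thymidylate, had the smallest SD, 0.07. It read under FGF8 0.19, 0.07 and -0.01 in the Lmx1a line at day 10, 0.01, -0.03 and 0.04 at day 14, 0.07, 0.01 and -0.05 in the Nkx2.2 line and -0.02, 0.19 and -0.04 in wild type cells. In the RA groups the readings were -0.02, -0.04 and -0.07 in the Nkx2.2 line, -0.01, 0.02 and 0.00 in the Olig2 line and -0.06, -0.03 and -0.06 in wild type cells. No array of Tyms differed from 0 by more than 0.19. Its 4 probe sets had SDs of 0.05 to 0.07, beside a median of 0.38 over all genes. Whether Tyms RNA was detected at all cannot be read from centred values.

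From day 10 to day 14 in the Lmx1a line, the members read lower, and the mitotic ones lay furthest below. All 39 differences, day 14 minus day 10, were below 0, with a median of -2.06 beside -0.05 over all genes. The arrays of the 2 days did not overlap, with day 14 lower, for 34 of the 39 members, beside 9.26% of all genes. With all arrays, 3 members passed the test, all lower, beside 1.28% of all genes that passed as lower: Bub1, Aurka and Plk1. Without replicate 2 of the FGF8 wild type, an array outside this comparison left out after seeing the data, 28 members passed, all lower, beside 1.89% of all genes. Leaving that array out lowered the standard errors of the members, so this count follows in part from that choice.

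Bub1, a checkpoint kinase at kinetochores, read under FGF8 1.06, 0.56 and 1.44 in the Lmx1a line at day 10, -1.58, -2.98 and -2.57 at day 14, -0.50, -0.50 and 0.04 in the Nkx2.2 line and 2.35, -1.96 and 2.84 in wild type cells. The RA arrays gave -0.35, -0.21 and 0.00 in the Nkx2.2 line, 1.17, 1.28 and 0.44 in the Olig2 line and -1.66, 0.43 and -0.38 in wild type cells. The day 14 readings lie far below those of day 10, and the difference was -3.40 ± 0.90 (adjusted p = 0.0338). Aurka, the kinase of centrosomes and spindle poles, read under FGF8 0.65, 1.04 and 1.75 in the Lmx1a line at day 10, -2.23, -2.41 and -2.05 at day 14, -0.84, -0.59 and 0.11 in the Nkx2.2 line and 2.29, -1.80 and 3.00 in wild type cells. Under RA it read -1.46, -0.28 and -0.39 in the Nkx2.2 line, 1.13, 1.04 and -0.61 in the Olig2 line and -1.64, 0.79 and -0.16 in wild type cells. Its day 14 arrays were tightly grouped, and the difference was -3.37 ± 0.95 (adjusted p = 0.0455). Plk1, a kinase of mitotic entry and exit, read under FGF8 0.60, 1.02 and 1.02 in the Lmx1a line at day 10, -1.51, -1.69 and -2.12 at day 14, -0.99, -0.91 and -0.17 in the Nkx2.2 line and 1.98, -1.23 and 2.84 in wild type cells. Its RA readings were -0.72, -1.10 and -0.01 in the Nkx2.2 line, 0.45, 0.49 and 0.00 in the Olig2 line and -0.61, 0.67 and 0.11 in wild type cells. No day 14 array of Plk1 came near day 10, and the difference was -2.65 ± 0.71 (adjusted p = 0.0367).

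**Figure D4:**
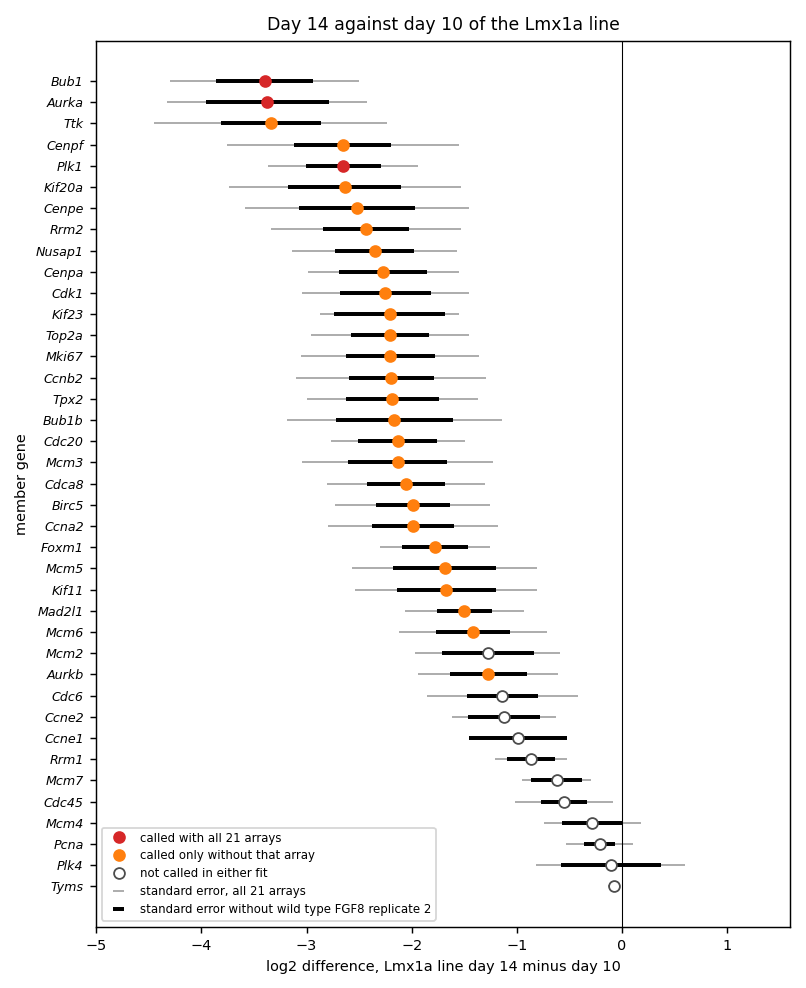
Log2 difference, Lmx1a line day 14 minus day 10, for each member, with the standard error from all 21 arrays (thin bars) and without replicate 2 of the FGF8 wild type (thick bars). Filled points passed the test with all arrays (red) or only without that array (orange), and the lowest values belong to Bub1, Aurka and Ttk.

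By role, the difference was largest in size for the mitotic apparatus and smallest for nucleotide supply and the replication origin. The median difference was -2.52 over 3 centromere and kinetochore members, -2.21 over 5 spindle motors and microtubule proteins, -2.17 over 5 spindle checkpoint members and -2.02 over 6 mitotic kinases and passenger proteins. It was -1.88 over 6 cyclins, Cdk1 and Foxm1, -1.14 over 9 licensing and helicase members and -0.87 over 3 nucleotide supply members. Tyms, 1 of those 3, barely varied on any array. Without that wild type array, 3 of 3 centromere, 5 of 5 spindle and 5 of 5 checkpoint members passed as lower. So did 5 of 6 mitotic kinases and passenger proteins (Plk4, the kinase of centriole duplication, did not), 4 of 6 cyclins and regulators, 3 of 9 licensing members (Mcm3, Mcm5 and Mcm6) and 1 of 3 nucleotide supply members (Rrm2). That array also departed most from its group for centromere (median -5.37) and checkpoint members (-4.55), and less for licensing (-3.15) and nucleotide supply (-1.50). These counts by role therefore follow in part from leaving it out. The difference between roles was not tested. Plk4 read -0.03, -0.09 and 0.02 at day 10 and -0.15, -0.13 and -0.13 at day 14, so it lay near its median on both days. Whether Plk4 was detected on these arrays cannot be read from centred values, nor can this be read for the other members. A gene below detection at day 10 could not read lower at day 14.

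Other genes of the cycle were also lower, as counted here. Of 41 other G2 and M genes, 5 passed as lower at day 14 with all arrays and 32 without the wild type array, and their median was -1.75. They included Cep55, a protein of the final cut between daughter cells (-3.28 ± 0.91, adjusted p = 0.0426), Ube2c, an enzyme of mitotic exit (-2.53 ± 0.68, adjusted p = 0.0362), Cks2, a subunit bound to cyclin-dependent kinases (-2.27 ± 0.62, adjusted p = 0.0376), and Racgap1, a cytokinesis protein (-1.73 ± 0.22, adjusted p = 0.000225). Of 34 other S phase genes, 2 passed as lower with all arrays, Tk1 and Dbf4, and 6 without that array, with a median of -0.40. Of 6 G1 cyclins and kinases none passed with all arrays and 1 passed as lower without that array, and of 13 cell cycle inhibitors none passed either way.

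Markers of other cell states had a different count of calls, and the difference from the members was not tested. Of 14 neural progenitor markers, 3 rose at day 14 and none fell: Sox9 by 1.82 ± 0.36 (adjusted p = 0.00662), Prom1 by 1.93 ± 0.50 (adjusted p = 0.0296) and Fabp7 by 1.56 ± 0.42 (adjusted p = 0.0368). These genes are also known from glia. Of 12 post-mitotic neuron markers, 2 passed as lower and none as higher: the neurofilament genes Nefm (-2.72 ± 0.26, adjusted p = 2.52e-05) and Nefl (-2.12 ± 0.25, adjusted p = 0.000154). Of 5 astroglial markers 1 passed, Aldh1l1, higher by 2.64 ± 0.65 (adjusted p = 0.0232). The labelling controls also differed between the days, as given above, and their part in the difference was not tested. Within the lower bioC set, 3 day 10 arrays against 2 of day 14, the median over the members was -2.09 and no member passed. With only the 6 arrays of the comparison, 19 members passed, beside 2.21% of all genes. No member passed without any one of Lmx1a day 10 replicates 2 and 3 or day 14 replicates 1, 2 and 3, and 1 passed without day 10 replicate 1.

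The engineered lines were compared with FGF8 wild type cells at the same day, and how many members passed rested on wild type replicate 2. In the Nkx2.2 line all 39 differences were below 0, with a median of -1.29 beside -0.01 over all genes. With all arrays 3 members passed, all lower, beside 1.71% of all genes that passed as lower: Mcm7, Cdc45 and Ccne1. The Nkx2.2 arrays lay wholly below the wild type for 4 members, beside 11.1% of all genes. Without wild type replicate 2 the median was -2.55 and 37 of 39 passed as lower, beside 3.52% of all genes. That array was singled out for its low member readings, so this count follows in part from leaving it out. Ccne2 and Tyms were the 2 that did not.

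Mcm7, a subunit of the replicative helicase, read under FGF8 0.03, 0.76 and 0.62 in the Lmx1a line at day 10, -0.22, -0.32 and 0.10 at day 14, -0.77, -0.70 and 0.00 in the Nkx2.2 line and 1.47, 0.22 and 1.67 in wild type cells. In the RA groups the readings were -0.89, -0.89 and -0.49 in the Nkx2.2 line, 0.14, 0.48 and -0.33 in the Olig2 line and 0.28, 0.43 and 0.10 in wild type cells. Even the low wild type replicate lay above all Nkx2.2 arrays, and the difference was -1.61 ± 0.33 (adjusted p = 0.0079). Cdc45, the partner that activates this helicase, read under FGF8 0.09, 0.01 and 0.91 in the Lmx1a line at day 10, -0.04, -0.30 and -0.32 at day 14, 0.01, -0.01 and -0.04 in the Nkx2.2 line and 2.29, 0.02 and 2.58 in wild type cells. The RA arrays gave -0.02, -0.03 and 0.30 in the Nkx2.2 line, 0.01, 0.75 and 0.00 in the Olig2 line and -0.05, -0.05 and -0.05 in wild type cells. Most Cdc45 readings crowded near 0 while the 2 high wild type arrays stood alone, and the difference was -1.65 ± 0.47 (adjusted p = 0.0462). Ccne1, whose arrays are given with the RA groups, differed by -1.69 ± 0.47 (adjusted p = 0.0413). With only the 6 arrays compared, no member passed, beside 1.89% of all genes, and none passed without Nkx2.2 replicate 1, beside 2.36%. Without Nkx2.2 replicate 2 or 3, or wild type replicate 1 or 3, 1 passed. The higher bioC set holds 1 wild type array, replicate 3, which is the highest of all 21 for 36 members. A test within that set rests on this array, so it cannot decide the comparison, and its count appears only with the processing settings.

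The Lmx1a line at day 10 was also set against FGF8 wild type cells. With all arrays no member passed by limma, beside 3.31% of all genes, 4 members had an unadjusted p under 0.05, and the median difference was -0.31. The arrays of the 2 groups overlapped for every member, beside 8.84% of all genes with the Lmx1a arrays wholly lower. Plk4 had the lowest difference, -1.86 ± 0.71 (adjusted p = 0.178). Without wild type replicate 2, the array singled out for its low member readings, the median was -1.57. Then 18 of 39 passed as lower, beside 2.49% of all genes, a count that follows in part from that choice. Those 18 came from 6 of the 8 roles: 7 of 9 licensing and helicase members, 4 of 6 mitotic kinases and passenger proteins, 2 of 3 nucleotide supply members, 2 of 6 cyclins and regulators, 2 of 5 checkpoint members and 1 of 5 spindle proteins. None of the 3 centromere members and neither Mki67 nor Top2a passed. The role medians lay between -1.74 and -1.24, with licensing at -1.61 and the centromere at -1.64, and differences between roles were not tested. Cdc6, which loads the helicase, differed by -2.33 ± 0.38 (adjusted p = 0.00201) and Mki67 by -1.29 ± 0.47 (adjusted p = 0.145). The sign of some members turned with this replicate: Mki67 differed by 0.15 ± 0.85 and Cdk1 by 0.26 ± 0.79 with all arrays, and Cdk1 by -1.06 without it. In the lower bioC set, where the wild type arrays are replicates 1 and 2, the median was 0.25.

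Outside the members, Racgap1 passed as lower against FGF8 wild type cells in both lines with all arrays: -1.70 ± 0.22 in the Lmx1a line (adjusted p = 0.000413) and -1.68 ± 0.22 in the Nkx2.2 line (adjusted p = 0.00024). Of 34 other S phase genes 5 passed as lower in each line, among them Rfc3, a subunit of the clamp loader, in the Lmx1a line (-1.15 ± 0.19, adjusted p = 0.00276) and Gins1, a helicase partner, in the Nkx2.2 line (-1.39 ± 0.34, adjusted p = 0.0213). Uhrf1, which guides DNA methylation after replication, differed by -2.76 ± 0.75 (adjusted p = 0.0379) in the Nkx2.2 line. The 2 comparisons share their wild type arrays. Of 14 neural progenitor markers 2 passed as higher in the Lmx1a line, Slc1a3 (3.21) and Prom1 (2.39), and 2 as lower, Pax6 (-4.12) and Sox9 (-1.42). In the Nkx2.2 line 2 passed, as lower, Pax6 (-5.20) and Dll1 (-1.72). Other markers that passed in the Lmx1a line were the neurofilament genes Nefl (-1.08) and Nefm (-1.22), the pluripotency gene Esrrb (-1.78) and the endothelial gene Kdr (1.66). In the Nkx2.2 line they were the astroglial genes Aqp4 (4.53) and Aldh1l1 (2.72), the mesenchymal gene Dcn (4.22) and Esrrb (-1.88). The part of these markers in the member differences was not tested.

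At day 10 under FGF8 the Lmx1a line lay above the Nkx2.2 line for most members. The median difference was 0.93 beside 0.03 over all genes, and the Lmx1a arrays lay wholly above for 27 of 39 members, beside 8.76% of all genes. With all arrays no member passed, beside 5.07% of all genes, and 3 had an unadjusted p under 0.05. Without the wild type replicate 3 passed as higher, beside 2.42% of all genes: Plk1 (1.57 ± 0.36, adjusted p = 0.0148), Foxm1 (1.28 ± 0.32, adjusted p = 0.0224) and Rrm2 (1.40 ± 0.41, adjusted p = 0.0461). Among other S phase genes E2f1, a transcription factor of the G1 to S transition, passed as higher with all arrays (1.496 ± 0.44, adjusted p = 0.048). Without Lmx1a replicate 1 or Nkx2.2 replicate 3, 1 member passed. Every array of the Lmx1a group lay in the lower bioC set and every array of the Nkx2.2 group in the higher set, so set and line cannot be told apart here. Markers of other cell types also differed: lower in the Lmx1a line were the astroglial genes Aqp4 (-4.52) and Aldh1l1 (-2.32), the mesenchymal gene Dcn (-4.64), the oligodendroglial gene Pdgfra (-2.85) and the progenitor genes Sox9 (-1.99) and Sox1 (-1.96), and Kdr was higher (1.41). None of 12 neuron markers passed. The part of these markers was not tested.

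In the Nkx2.2 line itself, FGF8 and RA at day 10 were compared directly. No member passed, beside 4.31% of all genes, none had an unadjusted p under 0.05 by limma, and the smallest adjusted p was 0.303. The differences, FGF8 minus RA, ran from -1.09 to 0.83 with a median of -0.15. The FGF8 arrays lay wholly above the RA arrays for 3 members, beside 13.2% of all genes, and wholly below for 4, beside 9.53%. No member passed without the wild type replicate either, beside 4.86% of all genes. All 6 arrays lay in the higher bioC set. Of 12 post-mitotic neuron markers 4 passed: Nefm was higher under FGF8 by 3.15 ± 0.26 (adjusted p = 3.63e-06), Nefl by 2.14 ± 0.25 (adjusted p = 0.00012), Elavl3 by 1.32 ± 0.35 (adjusted p = 0.0346) and Tubb3 by 1.30 ± 0.22 (adjusted p = 0.00196). Prom1 (-2.14), Aldh1l1 (-2.27) and the oligodendroglial gene Mbp (-3.93) were lower under FGF8.

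Among the RA groups the cyclin E genes stood out, and they parted from each other. Ccne1, which with its partner kinase Cdk2 starts S phase, read under RA -1.20, -1.15 and -0.01 in the Nkx2.2 line, 3.16, 3.36 and 2.06 in the Olig2 line and -0.16, 1.71 and 0.30 in wild type cells. Under FGF8 it read 0.62, -0.01 and -0.38 in the Lmx1a line at day 10, -0.80, -0.85 and -1.09 at day 14, -0.72, -0.62 and -0.82 in the Nkx2.2 line and 0.99, 0.42 and 1.48 in wild type cells. All 3 Olig2 arrays lay above the other 18 arrays. Ccne2, the second cyclin E gene, read under RA 1.04, 1.39 and 0.55 in the Nkx2.2 line, 0.26, 0.54 and 0.41 in the Olig2 line and -1.66, -0.51 and -0.52 in wild type cells. Under FGF8 it read 0.79, -0.38 and 0.17 in the Lmx1a line at day 10, -0.60, -0.74 and -1.45 at day 14, 0.03, 0.00 and -0.03 in the Nkx2.2 line and 0.91, -1.02 and 1.31 in wild type cells. Its highest group mean was that of the Nkx2.2 line under RA, where Ccne1 was low.

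**Figure D5:**
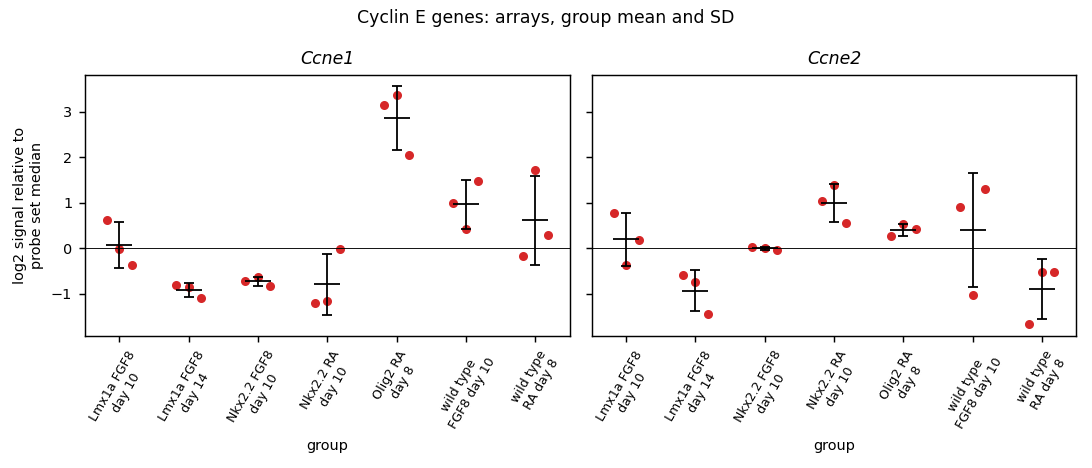
Log2 signal of Ccne1 (left) and Ccne2 (right) on each array (red points), relative to the probe set median, with the mean and SD of each group of 3 arrays in black. Ccne1 is highest in the Olig2 line and Ccne2 in the Nkx2.2 line under RA.

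In the Olig2 line against RA wild type cells, both at day 8, the median difference over the members was 0.88 beside 0.04 over all genes. With all arrays 2 members passed, both higher, beside 5.5% of all genes that passed as higher: Ccne1 (2.24 ± 0.47, adjusted p = 0.0039) and Rrm1. Rrm1, the large subunit of ribonucleotide reductase, read under RA -0.54, -0.32 and -0.13 in the Nkx2.2 line, 0.21, 0.39 and -0.48 in the Olig2 line and -1.52, -1.06 and -0.51 in wild type cells. Under FGF8 it read 0.29, 0.28 and 0.38 in the Lmx1a line at day 10, -0.56, -0.51 and -0.59 at day 14, 0.00, -0.10 and 0.20 in the Nkx2.2 line and 1.51, 0.09 and 1.67 in wild type cells. Replicates 1 and 2 of the wild type were its lowest arrays, all Olig2 arrays lay above the wild type, and the Olig2 difference was 1.07 ± 0.34 (adjusted p = 0.0414). Without the FGF8 wild type replicate 8 members passed as higher, beside 5.93% of all genes: Kif11, a spindle motor (1.82 ± 0.47, adjusted p = 0.0149), Cdca8, Bub1, Mcm6, Ccne2 and Cdc6 joined these 2. In the higher bioC set, where replicate 3 is the lone Olig2 array, the median difference was 0.27. With only the 6 arrays compared none passed, beside 8.16% of all genes. Without Olig2 replicate 1 or 2, or RA wild type replicate 1 or 2, 1 passed.

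Olig2 arrays lay wholly above the RA wild type for 11 of 39 members, beside 46.1% of all genes, so this count says nothing particular to the members. Ccnd1, a G1 cyclin, was lower in the Olig2 line (-3.07 ± 0.95, adjusted p = 0.0363) and Gadd45g, a gene of growth arrest and stress, was higher by 2.59 ± 0.38 (adjusted p = 0.000293). Among other S phase and other G2 and M genes none passed with all arrays, and 8 of 34 and 9 of 41 passed as higher without the FGF8 wild type replicate, with 1 of 41 lower.

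Markers of other cell types moved with this comparison. Of 5 mesenchymal markers 2 passed as lower in the Olig2 line, Col1a2 (-4.44) and Dcn (-3.96), and the array medians of that list ran from -0.90 to 0.37 in the Olig2 line and from -0.19 to 3.82 in wild type cells. Esrrb (-4.39) and Aldh1l1 (-2.83) were also lower. Of 12 neuron markers 2 were higher, Nefm (1.86) and Nefl (1.13), and 2 lower, Rbfox3 (-1.88) and Elavl3 (-1.36). Of 14 progenitor markers Sox1 was higher (1.54) and Pax6 lower (-3.53). The part of these markers in the member differences was not tested.

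In the Nkx2.2 line at day 10 against RA wild type cells at day 8, where line and day differ together, 3 members passed, 1 higher and 2 lower, beside 8.84% of all genes higher and 9.16% lower. Ccne2 was higher (1.89 ± 0.49, adjusted p = 0.00879), Ccne1 was lower (-1.40 ± 0.47, adjusted p = 0.0351) and Mcm7 was lower (-1.02 ± 0.33, adjusted p = 0.0306). The median over the members was 0.35. The Nkx2.2 arrays lay wholly above the wild type for 8 members, beside 25.7% of all genes, and wholly below for 2, beside 17.4%. Without the FGF8 wild type replicate 5 passed as higher and 2 as lower, each beside 9.22% of all genes: Cdca8, Cdc6, Mcm6 and Mcm4 were the added ones, all higher. Dnmt1, the maintenance DNA methyltransferase listed with S phase genes, was lower (-1.69 ± 0.19, adjusted p = 1.79e-05). Other cycle genes that passed with all arrays were Lmnb1 (-1.94) and Cdkn2b (-1.44), lower, and Cdk2 (1.63) and Gadd45g (1.15), higher. Without Nkx2.2 replicate 1 or 2, or wild type replicate 1 or 2, 1 member passed. Within the higher bioC set, which holds every array of both groups, 4 members passed, beside 15.2% of all genes. Of 14 neural progenitor markers 5 passed as higher and 2 as lower, and of 12 neuron markers 5 passed as lower and none as higher. The glial genes Aqp4 (4.31), Mbp (3.47) and Aldh1l1 (2.02) were higher and Esrrb was lower (-4.99). Their part in the member differences was not tested. The difference of the Nkx2.2 line from wild type was also compared between FGF8 and RA with an interaction contrast: 1 member passed with all arrays, Rrm1, beside 4.38% of all genes, and 34 passed without FGF8 wild type replicate 2, beside 8.33%.

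Between the Nkx2.2 line at day 10 and the Olig2 line at day 8, both under RA, 1 member passed, as lower, beside 6.94% of all genes. That was Ccne1, lower in the Nkx2.2 line with all arrays (-3.65 ± 0.47, adjusted p = 4.69e-05), and it was also the 1 member that passed without the FGF8 wild type replicate, beside 7.07% of all genes. The Nkx2.2 arrays lay wholly below the Olig2 arrays for 8 members, beside 35.2% of all genes. Within the higher bioC set, where the Olig2 line has 1 array, the median over the members was 0.11, beside -0.37 with all arrays. Cdkn2d, an inhibitor of Cdk4 and Cdk6, was lower in the Nkx2.2 line (-1.14 ± 0.24, adjusted p = 0.00298). Of 5 mesenchymal markers 3 were higher there, Col1a2 (3.90), Lum (3.53) and Dcn (3.36). The glial genes Aldh1l1 (4.84), Aqp4 (4.64) and Mbp (2.32), the progenitor gene Prom1 (4.59) and the pluripotency gene Klf4 (2.24) were higher too, and the progenitor gene Dll1 was lower (-1.28). Of 12 neuron markers 4 were lower, Nefm (-3.67), Nefl (-2.59), Elavl3 (-1.70) and Rbfox3 (-1.55), and Syt1 was higher (2.89). The part of these markers was not tested.

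RA wild type cells at day 8 read below FGF8 wild type cells at day 10, where factor and day differ together. All 39 differences, RA minus FGF8, were below 0 with a median of -1.46 beside -0.05 over all genes. With all arrays 4 members passed, all lower, beside 3.11% of all genes that passed as lower: Cdca8, Rrm1, Foxm1 and Cdc45. The RA arrays lay wholly below for 3 members, beside 22.6% of all genes. Without FGF8 replicate 2 the median was -2.64 and 37 of 39 passed as lower, beside 4.78% of all genes. Ccne1 and Tyms were the 2 that did not. This count too follows in part from leaving out the array on which the members read low.

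Cdca8, a subunit of the chromosomal passenger complex, read under FGF8 0.75, -0.16 and 0.81 in the Lmx1a line at day 10, -1.54, -1.53 and -1.69 at day 14, 0.21, 0.11 and 0.36 in the Nkx2.2 line and 2.27, -1.44 and 2.56 in wild type cells. Under RA it read 0.13, 0.35 and -0.06 in the Nkx2.2 line, 0.52, 0.46 and -0.63 in the Olig2 line and -2.24, -0.63 and -1.50 in wild type cells. Its 3 RA wild type arrays were low as a set, and the difference was -2.58 ± 0.75 (adjusted p = 0.0363). Foxm1, a transcription factor of G2 and M genes, read under FGF8 0.18, 1.61 and 1.77 in the Lmx1a line at day 10, -0.85, -0.84 and -0.08 at day 14, -0.24, 0.00 and -0.03 in the Nkx2.2 line and 2.38, 0.03 and 2.62 in wild type cells. Its RA readings were -0.40, -0.54 and -0.39 in the Nkx2.2 line, 0.00, 0.39 and 0.00 in the Olig2 line and -0.08, -0.04 and -0.01 in wild type cells. Its RA wild type arrays lay within 0.1 of 0, below all 3 FGF8 arrays, and the difference was -1.72 ± 0.52 (adjusted p = 0.0441). Rrm1 differed by -2.12 ± 0.34 (adjusted p = 0.00104), and its arrays did not overlap between the groups. Cdc45 differed by -1.68 ± 0.47 (adjusted p = 0.0297). The higher bioC set holds FGF8 replicate 3 alone of its group. A test within that set rests on this array and cannot decide the comparison, so its count appears only with the processing settings. With only the 6 arrays compared no member passed, beside 4.04% of all genes. Without FGF8 replicate 1 or 3, or RA replicate 1 or 3, 1 passed, and without RA replicate 2, 2 passed.

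Of 34 other S phase genes 8 passed as lower in RA wild type cells, with Uhrf1 (-2.88 ± 0.75, adjusted p = 0.0216) the lowest, and of 41 other G2 and M genes 3 did: Cdc25c, which activates Cdk1, Nuf2, a kinetochore protein, and Racgap1. Among cell cycle inhibitors Cdkn2b was higher by 2.00 ± 0.46 (adjusted p = 0.012) and Gadd45g was lower (-2.07 ± 0.38, adjusted p = 0.00266). RA wild type replicate 1, the lowest of its group at a member median of -1.10, also had the lowest progenitor marker median, -0.77 beside 0.00 and 0.06 on replicates 2 and 3. Of the other cell type markers, Dcn (4.89), Aldh1l1 (2.97), Esrrb (2.95) and Pdgfra (2.55) were higher in RA wild type cells. Of the progenitor markers Slc1a3 was higher (3.21), and Sox1 (-2.81) and Sox2 (-1.13) were lower. Of the neuron markers Rbfox3 (2.43) and Elavl3 (1.25) were higher, and Nefm (-2.31), Map2 (-2.11) and Nefl (-1.61) were lower. The part of these markers and of replicate 1 in the difference was not tested.

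Over all 7 groups at once, 10 of 39 members differed by limma's F test at an adjusted p under 0.05, beside 41.3% of all genes, so the share of members was below that of all genes. Without FGF8 wild type replicate 2, 38 of 39 differed, beside 43.1% of all genes, and without any other single array between 4 and 9 did. The count of 38 follows in part from leaving out the array on which the members read low.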

How the data were processed

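Total RNA of purified neurons was hybridised to 21 Affymetrix arrays, 7 groups of 3. The deposited values were log2 signals made by the authors with GCRMA, per the submitters' processing notes, which give no version. The values show each probe set centred on its median over 27 arrays, and 6 of these arrays are not used here. Depth does not apply to arrays, and their number limits the precision. Genes were named through the platform annotation: of 45101 probe sets 34945 had 1 symbol, 932 several and 9160 none, and 64 were controls. The most variable probe set stood for a gene.

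One mean per group was fitted over all 21 arrays with limma 3.58.1 (lmFit, eBayes; R 4.3.3), and p-values were adjusted by Benjamini-Hochberg over 18193 genes. A call needed an adjusted p under 0.05 and a log2 difference of at least 1. The fit was tested on simulated data with independent noise for each gene, which does not cover an array on which many genes move together. Replicate numbers do not pair samples: deviations of same-numbered arrays had a mean correlation of 0.00603. Alternatives changed the moderation, block, probe set rule, centring, filter and arrays used. Leaving out FGF8 wild type replicate 2 in comparisons without that group, the split by bioC and the interaction were added after seeing the data. The members and gene lists were chosen with earlier results of these data known. Values on every array are given for general division markers, members that passed, and the most and least variable members. Of the other genes that passed, only some are named. They were chosen after their values were seen and not always for the largest differences, so a gene not named may have passed. Motifs were searched in RefSeq promoters of GRCm38.p6.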

Additional observations from a re-analysis of the deposited data

Results flagged for a closer look

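The Nkx2.2 line minus wild type differed between FGF8 and RA for Rrm1, the large subunit of ribonucleotide reductase. The difference of the 2 differences, FGF8 minus RA, was -1.76 ± 0.48 (limma interaction contrast, adjusted p = 0.0456). Rrm1 was the 1 member of 39 that passed this contrast, beside 4.38% of all genes. Without FGF8 wild type replicate 2, 34 of 39 members passed, beside 8.33% of all genes, and Rrm1 read -2.26 (adjusted p = 0.00106). That array was singled out for its low member readings, so the count of 34 follows in part from leaving it out. The RA wild type was sampled at day 8 and the other 3 groups at day 10, so factor and day cannot be told apart in this contrast.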

How the results depend on the processing

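Counts of members that passed moved with the arrays used, and the cause was not tested except where fewer arrays or genes entered. Leaving out 1 array at a time gave 0 to 18 members for Lmx1a day 10 against FGF8 wild type, beside 1.97 to 4.17% of all genes. The counts were 0 to 37 for Nkx2.2 FGF8 against wild type (2.36 to 6.61%) and 1 to 8 for Olig2 against RA wild type (7.2 to 11.6%). They were 1 to 7 for Nkx2.2 RA against wild type (15.7 to 18.4%) and 0 to 28 for Lmx1a day 14 against day 10 (2.85 to 5.43%). Lmx1a against Nkx2.2 under FGF8 gave 0 to 3 (2.57 to 6.6%), and Nkx2.2 RA against Olig2 gave 1 to 1 (10.8 to 14.2%). RA against FGF8 wild type gave 1 to 37 (4.4 to 8.96%), and the 7 groups gave 4 to 38 (36.3 to 43.1%). Without 3 arrays that stood apart these counts were 12, 33, 6, 7, 25 and 2, then 37 and 38 for the last pair. The shares of all genes were 3.67, 5.12, 10.9, 18.3, 6.19 and 4.61%, then 9.09 and 41.6% for the last pair. The 3 were replicate 1 of Lmx1a day 10, replicate 1 of Nkx2.2 FGF8 and replicate 2 of the FGF8 wild type. This setting thus repeats the removal of that wild type array and is no separate check. With the replicate block 1 member passed for Nkx2.2 FGF8 and 1 for Olig2 against wild type, and 6 over the 7 groups; the block moved no other count by more than 1.5 times. With the bioC set as a block 1 passed for Olig2 (beside 7.58% of all genes) and 2 for RA against FGF8 wild type (4.49%). With only the arrays compared the counts were 0 for Nkx2.2 FGF8 (beside 1.89% of all genes), 0 for Olig2 (8.16%) and 19 for day 14 (2.21%). They were 2 for Nkx2.2 RA against Olig2 (10.9%) and 0 for the wild types (4.04%). A filter on range gave 9 for day 14 (beside 8.46% of the genes kept) and 8 for the wild types (14.1%). The mean of all probe sets gave 1 for Olig2 (beside 6.71% of all genes) and 1 for Nkx2.2 RA against wild type (12.8%). Centred arrays gave 1 for Olig2 (9.97%). Within 1 bioC set, where the Olig2 line and the FGF8 wild type have 1 array in the higher set and that lone array is assumed to vary like the other groups, the counts were 20 for Nkx2.2 FGF8, 0 for Olig2, 0 for day 14, 0 for Nkx2.2 RA against Olig2 and 30 for the wild types; the lone FGF8 wild type array is the highest of 21 for 36 members, so the counts of 20 and 30 rest on that array, and apart from day 14 (2 arrays against 3) none of these counts bears on stability. Signs turned for Lmx1a day 10 minus FGF8 wild type. Top2a read 0.19 and Mcm2 0.043 with the bioC block, 0.67 and 0.46 within the lower set and without wild type replicate 3, and 0.42 and 0.24 without replicate 1. Top2a read 0.0033 without Lmx1a replicate 1. Leaving out 1 array at a time gave -1.29 to 0.97 for Mki67, -1.37 to 0.67 for Top2a, -1.06 to 1.13 for Cdk1 and -1.22 to 0.46 for Mcm2. Without the 3 arrays Mki67 read -1.43 and Cdk1 -0.96. For Nkx2.2 FGF8 minus wild type the range for Cdk1 was -2.04 to 0.15.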
